A study of Saccharomyces cerevisiae with 6 samples.

Results

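Genes of meiosis and spore formation were followed in budding yeast growing in rich medium, a condition in which this programme is normally off. The set held 41 genes of 6256 measured on the arrays. They were chosen by name for their roles in meiosis or sporulation, from entry into the programme to the spore wall. The choice used no cut on values, but it was made with earlier results of these data known. Of the 41, 40 were found under their current symbol and REC8 was found by its systematic name.

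Each array compared mRNA of a mutant with mRNA of the wild type (WT). The mutants were mot1-14, TBP-Y185C and TBP-F207L, with 2 arrays each. The TBP strains are the bypass strains of the labels: their TBP variants make Mot1 dispensable. All strains were the AY138 background after plasmid exchange on FOA. The exchanged plasmid was pMOT244 for mot1-14, pTBP-Y185C or pTBP-F207L for the bypass strains, and pAV20 for WT MOT1. Cells were grown in YPD at 30 °C to an optical density of about 1.0. The mutant was labelled with Cy5 on array 1 of each pair and with Cy3 on array 2, and WT RNA stood in the other channel of all 6 arrays. Whether both arrays of a mutant used RNA of separate cultures is not stated in the labels. The p-values thus reflect spread among arrays, possibly of technical origin only, and leave out the spread of WT itself. All values below are log2 ratios of mutant over WT unless a scale is named, and values in threes belong to mot1-14, TBP-Y185C and TBP-F207L in that order.

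TBP, encoded by SPT15, is the factor that binds TATA boxes and seeds transcription by all nuclear RNA polymerases. Mot1 is an ATPase that removes TBP from DNA and moves it between promoters. In meiosis, the transcription factor Ime1 starts the programme and acts with the kinase Ime2, and the transcription factor Ndt80 then turns on the middle genes of the meiotic divisions and of spore formation. During growth, early genes are held down by Ume6 through the histone deacetylase complex of Rpd3 and Sin3. Many middle genes are held down by Sum1 with Rfm1 and the deacetylase Hst1. Diploid a/alpha cells enter the programme when nutrients run out.

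The targeted genes were read first, although array probes measure mRNA and do not tell alleles apart. MOT1 read 2.24 and 2.11 on the mot1-14 arrays, -3.73 and -3.28 on the TBP-Y185C arrays, and -1.74 and -3.41 on the TBP-F207L arrays. MOT1 mRNA was thus above WT in mot1-14 and far below WT in both bypass strains (adjusted p = 0.000452, 2.84e-05 and 0.000158). SPT15 fell by 0.36 in mot1-14 cells (adjusted p = 0.0118). It rose by 4.08 in TBP-Y185C cells and by 3.63 in TBP-F207L (adjusted p = 1.82e-07 and 2.46e-07), so the bypass strains carried more TBP mRNA than WT as well as a changed TBP. Lower MOT1 mRNA, more TBP mRNA and the changed TBP cannot be told apart in the bypass strains. Nor can the mot1-14 allele, its higher MOT1 mRNA and its lower SPT15 mRNA be told apart in mot1-14.

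Most of the 41 genes were dim in growing cells but measurable. In WT, 37 were well above background on every array that measured them. The median spot signal over local background was 2.02 among the 39 tested genes, with a range of 1.26 to 14. ZIP2 was not well above background in any channel, and MEK1 was so only on array 1 of TBP-F207L. These 2 genes were not tested in any strain. REC8 and SPR1 had no usable spot on array 1 of mot1-14 and were not tested in that mutant, which left 37 genes there. Array 1 of TBP-F207L stood apart from the other 5 arrays at the dim end. On that array the 89 negative control spots had a median signal over background of 1.49 in the mutant channel and 1.36 in the WT channel, against 1.07 to 1.20 on the other arrays. The 41 genes had a median of 11.6 in the mutant channel and 4.41 in the WT channel there, against 2.20 to 4.62 and 1.94 to 2.03 on the other arrays.

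More of these genes were higher than lower in every mutant. In mot1-14, 17 of 37 rose (45.9%) and 5 fell (13.5%), against 37.5% of all genes tested that rose and 35.2% that fell. In TBP-Y185C, 25 of 39 rose (64.1%) and 4 fell (10.3%), against 41% and 38.8% of all genes tested. In TBP-F207L, 26 of 39 rose (66.7%) and 5 fell (12.8%), against 40.3% and 38.8% of all genes tested. A change was called at an adjusted p under 0.05 in the limma fit over all genes. The share that rose in mot1-14 lay near that of all genes, and the shares in the bypass strains lay above it. Some small rises depended on the fit. Without a dye term, MEI5 and SPR3 were called in neither bypass strain (adjusted p = 0.0751 to 0.241), and SPS1 was not called in mot1-14 (adjusted p = 0.105).

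The median over the genes was 0.05 in mot1-14 cells, 0.25 in TBP-Y185C cells and 0.20 in TBP-F207L, beside medians of all genes within 0.01 of 0. These medians moved with the processing, to 0.28, 0.55 and 0.45 with the deposited log ratios and to 0.10, 0.12 and 0.11 with median centring. Without array 2 of mot1-14 its median was 0.10. Rises of 2-fold or more numbered 3 of 37 in mot1-14 (4.49% of all genes), 4 of 39 in TBP-Y185C (6.42% of all genes) and 4 of 39 in TBP-F207L (4.97% of all genes). These shares, 8.11%, 10.3% and 10.3% of the genes, rest on few genes each. None of the 41 fell by 2-fold or more, a size of fall seen in 0.588%, 1.96% and 2.34% of all genes in the same order of mutants. In a bulk sample, more cells that express a gene and more RNA per cell cannot be told apart.

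**Figure D1:**
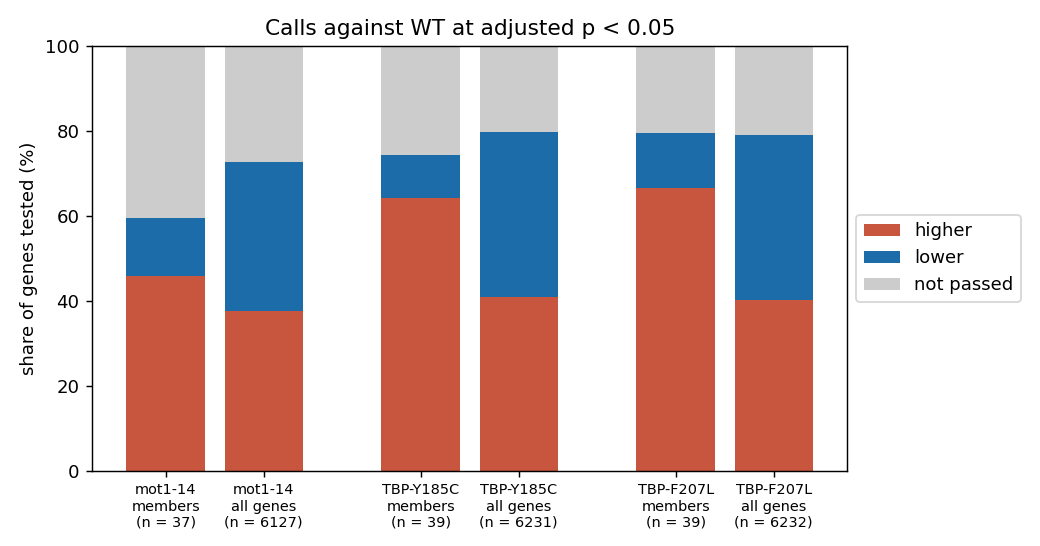
Share of genes tested (vertical axis, %) that were higher, lower or not past the test against WT, for the meiosis and sporulation genes and for all genes in each mutant. The share that rose was 45.9%, 64.1% and 66.7% of the members in cells of mot1-14, TBP-Y185C and TBP-F207L, and 37.5%, 41% and 40.3% of all genes.

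Of the 37 genes tested in all 3 mutants, 17 rose in each (45.9%), against 26.7% of all genes that did so. They were IME2, NDT80, REC104, DMC1, SPO16, SPO22, SPO12, SPO13, SPO20, SPR28, SPS1, SPS4, CDA1, DIT1, DIT2, SPS100 and SGA1. Of these, 9 rose in all 3 under each of the 15 other settings and left-out arrays tried: IME2, NDT80, REC104, DMC1, SPO22, SPO12, CDA1, DIT1 and SGA1. SPO20 and SPS1 did so in 7 of the 15, SPO13 in 8 and SPS4 in 9, and without a dye term 10 of the 37 genes rose in all 3 (19.4% of all genes). Over the settings with every array kept, 19.4% to 27.4% of all genes rose in all 3. The share of all genes that did so under every setting is not given here. Only 2 of the 37, SPR6 and SPO1, fell in all 3, whereas 24.3% of all genes did so. SPO1 was not called in TBP-F207L with median centring (adjusted p = 0.0647). Another 6 genes, REC114, MEI4, MSH4, SPO21, SMK1 and CDA2, passed in none of the mutants. This too depended on the scaling. With median centring their TBP-Y185C values were -0.43, -0.35, -0.33, -0.36, -0.38 and -0.22 in that order. The 3 comparisons share the same WT strain, so a gene that reads high or low in WT moves in all of them together.

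The regulators did not move as a unit. IME1 read 0.05 and 0.02 on the mot1-14 arrays, -0.07 and -0.16 on the TBP-Y185C arrays and -0.09 and -0.19 on the TBP-F207L arrays. The fitted IME1 changes were 0.04 in mot1-14 cells (adjusted p = 0.33), -0.11 in TBP-Y185C cells (adjusted p = 0.0171) and -0.14 for TBP-F207L (adjusted p = 0.00593), each with an SE of 0.03. IME1 thus did not pass in mot1-14 and fell slightly in both bypass strains, and these small falls were not called in a fit without a dye term (adjusted p = 0.113 and 0.0593).

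IME2 read 0.20 and 0.22 in mot1-14 cells, 0.38 and 0.36 in TBP-Y185C cells and 0.32 and 0.44 in TBP-F207L. All 6 values lay above 0, and the fitted rises were 0.21, 0.37 and 0.38 (SE 0.04 each, adjusted p = 0.00179, 7.79e-05 and 7.46e-05). NDT80 read 0.43 and 0.43 in mot1-14 cells, 1.01 and 0.93 in TBP-Y185C cells and 0.60 and 0.73 in TBP-F207L. NDT80 was lowest in mot1-14 and highest in TBP-Y185C cells, with no overlap between the 2 arrays of each mutant. The NDT80 differences of TBP-F207L from mot1-14 and from TBP-Y185C depended on the processing. They were not called with the deposited log ratios (adjusted p = 0.179 and 0.0533) or without a dye term (adjusted p = 0.0717 and 0.0948). The fitted NDT80 rises over WT were 0.43, 0.97 and 0.67 (SE 0.04 each, adjusted p = 8.38e-05, 1.21e-06 and 7.44e-06), or 1.35-, 1.96- and 1.59-fold.

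Among genes of the chromosome axis and of double-strand break formation, 1 of 7 tested rose in mot1-14 cells, 4 of 8 in TBP-Y185C cells and 5 of 8 in TBP-F207L, and 1 fell, in TBP-F207L. The shares that rose, 14.3%, 50% and 62.5%, stood against 37.5%, 41% and 40.3% of all genes. REC104, a partner of the break-forming enzyme Spo11, rose in all 3, by 0.59 in mot1-14 cells, 0.81 in TBP-Y185C cells and 0.51 in TBP-F207L. RED1, a structural protein of the meiotic chromosome axis, read 0.02 and -0.05 in mot1-14 cells, 0.49 and 0.53 in TBP-Y185C cells and 0.53 and 0.64 in TBP-F207L. RED1 did not pass in mot1-14 (-0.02, adjusted p = 0.75) and rose in both bypass strains, by 0.51 and 0.59 (SE 0.04, adjusted p = 1.88e-05 and 1.04e-05). REC8, the meiotic cohesin subunit, rose by 0.60 in TBP-Y185C cells and 0.45 in TBP-F207L, and its only usable mot1-14 array read 0.37.

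The other genes of break formation moved little. HOP1, another axis protein, rose by 0.17 in TBP-Y185C cells and 0.22 in TBP-F207L and stood at 0.05 in mot1-14. In TBP-Y185C it was not called without array 1 of that strain (adjusted p = 0.159) or with median centring (0.04, adjusted p = 0.673). SPO11 itself was -0.02 in mot1-14 cells, 0.05 in TBP-Y185C cells and 0.16 in TBP-F207L, and the last of these passed but turned to -0.055 with median centring, with no call. REC102, which works with Rec104, read -0.11 and -0.39 in TBP-F207L and fell there by 0.25 (SE 0.05, adjusted p = 0.00178), a fall not called without a dye term (adjusted p = 0.0687). With loess, REC114 and MEI4, which form another part of the break machinery, lay between -0.12 and 0.01 with no call. Genes whose products act in the same complex, such as REC102 and REC104, thus had different values.

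Among genes of strand exchange, synapsis and crossing over, 3 of 8 tested rose and 2 fell in mot1-14, and 5 of 8 rose and 1 fell in each bypass strain. The mot1-14 share, 37.5%, equalled that of all genes, and the bypass share was 62.5% against 41% and 40.3%. DMC1, the recombinase specific to meiosis, read 1.04 and 0.98 in mot1-14 cells, 1.33 and 1.24 in TBP-Y185C cells and 1.02 and 1.06 in TBP-F207L. It was the gene of this group with the highest values, on each of the 6 arrays. The fitted rises were 1.01, 1.29 and 1.04 (SE 0.04 each, adjusted p = 1.00e-06, 2.43e-07 and 6.39e-07), or 2.02-, 2.44- and 2.05-fold. MEI5, which helps load Dmc1, stood at 0.05, 0.09 and 0.14, of which the bypass strain values passed. With median centring MEI5 instead fell in TBP-Y185C, by 0.21 (adjusted p = 0.0143).

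SPO22 and SPO16, which promote crossovers together with the Zip proteins, rose in all 3 mutants. SPO22 rose by 0.31 in mot1-14 cells, 0.50 in TBP-Y185C cells and 0.47 in TBP-F207L. SPO16 rose by 0.24, 0.26 and 0.13 in the same order, the last not called without array 2 of TBP-F207L (adjusted p = 0.149) or with median centring (adjusted p = 0.197). ZIP1, the central protein of the synaptonemal complex, read -0.15 and -0.22 in mot1-14 cells, 0.24 and 0.13 in TBP-Y185C cells and 0.06 and 0.04 in TBP-F207L. ZIP1 fell in mot1-14 by 0.19 and rose in TBP-Y185C by 0.19 (SE 0.03, adjusted p = 0.00195 and 0.00166), and its difference between these mutants passed as well (0.37, SE 0.05, adjusted p = 0.00111). Neither ZIP1 call was made with median centring in place of loess (adjusted p = 0.157 and 0.0656).

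MSH4 and MSH5 form a pair that stabilises crossover intermediates. With loess, MSH4 was within 0.06 of 0 in each mutant with no call. MSH5 read -0.30 and -0.08 in mot1-14 cells, -0.23 and 0.01 in TBP-Y185C cells and -0.03 and 0.21 in TBP-F207L, the Cy3-labelled array being the higher of each pair. Its fitted values were -0.19, -0.11 and 0.09, and in a fit without a dye term none was called (adjusted p = 0.142, 0.338 and 0.458). MER1, a splicing activator for meiotic transcripts, fell in TBP-F207L by 0.17 (SE 0.04, adjusted p = 0.00488; 0.117 without array 2 of that strain) and stood at 0.00 and -0.07 in mot1-14 and TBP-Y185C.

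Both division genes rose in all 3 mutants, SPO13 only narrowly in mot1-14. SPO12, which also acts in exit from mitosis, was by far the brightest gene of the set in WT, at 14 times background. It read 0.69 and 0.70 in mot1-14 cells, 0.56 and 0.60 in TBP-Y185C cells and 0.73 and 0.84 in TBP-F207L. The fitted SPO12 rises were 0.70, 0.58 and 0.78 (SE 0.03 each, adjusted p = 3.30e-06, 5.02e-06 and 1.43e-06), or 1.62-, 1.5- and 1.72-fold. SPO13, which keeps sister chromatids together in meiosis I, rose by 0.47 in TBP-Y185C cells and 0.64 in TBP-F207L. Its 0.10 in mot1-14 (adjusted p = 0.0383) was not called without either array of that mutant (adjusted p = 0.264 and 0.207) or with median centring (adjusted p = 0.215).

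Genes of the prospore membrane and of spore formation moved both ways, with 4 of 11 that rose and 3 that fell in mot1-14, and 6 that rose and 2 that fell in each bypass strain. The shares that rose, 36.4% and 54.5%, stood against 37.5% of all genes in mot1-14 and 41% and 40.3% in the bypass strains. SPR28, a septin of the prospore membrane, read 0.42 and 0.41 in mot1-14 cells, 1.73 and 1.76 in TBP-Y185C cells and 0.91 and 1.63 in TBP-F207L. Values were low in mot1-14 and high in the bypass strains, with a wide gap between the TBP-F207L arrays. The fitted rises were 0.41, 1.74 and 1.27 (SE 0.12 each, adjusted p = 0.0149, 7.87e-06 and 4.41e-05), or 1.33-, 3.35- and 2.41-fold. The mot1-14 call was lost without array 1 of that mutant (0.22, adjusted p = 0.293). SPR3, a related septin, was not well above background in WT on either TBP-Y185C array and was at least 1.05-fold higher there (adjusted p = 0.0424). That direction turned with median centring, where SPR3 fell in TBP-Y185C by 0.32 (adjusted p = 0.000119), and the rise was not called without either TBP-Y185C array (adjusted p = 0.153 and 0.304).

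SPO20, a membrane fusion protein of the prospore membrane, rose by 0.64 in TBP-Y185C cells and 0.57 in TBP-F207L. Its 0.19 in mot1-14 (adjusted p = 0.0488) was not called without array 1 of that mutant (0.11, adjusted p = 0.477), without array 2 (adjusted p = 0.0708) or with the deposited log ratios (adjusted p = 0.0629). SPS4, named for its induction in sporulation, read -0.01 and 0.22 in mot1-14 cells, 0.60 and 0.75 in TBP-Y185C cells and 0.05 and 0.28 in TBP-F207L. SPS4 was high in TBP-Y185C cells, where it rose by 0.68 (SE 0.03, adjusted p = 2.28e-06), and rose by 0.16 in TBP-F207L. Its 0.10 in mot1-14 (adjusted p = 0.0296) was not called without either array of that mutant (adjusted p = 0.142 and 0.278). SPS1, a kinase of spore formation, rose by 0.17, 0.25 and 0.45, and SPS2, a cell wall protein, rose by 0.19 in TBP-Y185C cells and 0.22 in TBP-F207L. SPS2 turned to -0.10 and -0.050 with median centring, with no call.

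SPR6 and SPO1 fell in each mutant. SPR6, whose function is not known, read -0.70 and -0.58 in mot1-14 cells, -0.76 and -0.61 in TBP-Y185C cells and -0.64 and -0.54 in TBP-F207L. All 6 arrays lay below 0, and the fitted falls were -0.64, -0.68 and -0.59 (SE 0.03 each, adjusted p = 3.74e-06, 1.75e-06 and 3.82e-06). SPO1, a phospholipase-like protein needed at the spindle pole body in meiosis, read -0.27 and -0.42 in mot1-14 cells, -0.40 and -0.42 in TBP-Y185C cells and -0.11 and -0.27 in TBP-F207L. Its fitted falls were -0.35, -0.41 and -0.19 (SE 0.04 each, adjusted p = 0.000162, 5.14e-05 and 0.00326). These genes were well measured in WT, at 7.73 times background for SPR6 and 4.09 times for SPO1. SPS18, which encodes a zinc finger protein, fell in mot1-14 by 0.16 (SE 0.04, adjusted p = 0.012), a call lost without array 1 of that mutant (adjusted p = 0.246). With loess, SPO21, of the meiotic spindle pole body plaque, and SMK1, a kinase of spore wall assembly, stood between -0.06 and 0.05 with no call.

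Of the spore wall and spore enzyme genes tested, 5 of 6 rose in mot1-14 and 6 of 7 in each bypass strain, and none fell. These were 83.3% and 85.7% of a small group, against 37.5%, 41% and 40.3% of all genes. They included the gene with the highest value of the set in every mutant. CDA1, a chitin deacetylase that makes the chitosan layer of the spore wall, read 1.25 and 1.16 in mot1-14 cells, 2.46 and 2.61 in TBP-Y185C cells and 2.47 and 2.70 in TBP-F207L. Every bypass array lay far above both mot1-14 arrays, which in turn lay above 0. The fitted CDA1 rises were 1.20, 2.54 and 2.58 (SE 0.05 each, adjusted p = 2.11e-06, 1.23e-07 and 1.28e-07), or 2.30-, 5.81- and 5.99-fold. With loess, CDA2, the other chitin deacetylase, stood at -0.01, 0.07 and -0.02 with no call. SGA1, the glucoamylase that breaks down glycogen in sporulation, read 0.98 and 1.17 in mot1-14 cells, 1.57 and 1.80 in TBP-Y185C cells and 0.92 and 1.32 in TBP-F207L. SGA1 was highest in TBP-Y185C cells, with fitted rises of 1.08, 1.68 and 1.12 (SE 0.04 each, adjusted p = 1.52e-06, 1.99e-07 and 8.85e-07), or 2.11-, 3.21- and 2.17-fold.

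The remaining spore wall genes rose by less. DIT1 and DIT2, which make the dityrosine of the outer wall, rose in all 3 mutants, DIT1 by 0.18, 0.49 and 0.23 and DIT2 by 0.22, 0.30 and 0.22. SPS100, of spore wall maturation, read 0.33 and 0.19 in mot1-14 cells, 0.75 and 0.46 in TBP-Y185C cells and 0.23 and 0.18 in TBP-F207L. Its fitted rises were 0.26, 0.60 and 0.20, and the TBP-Y185C arrays were the highest. The TBP-F207L rise was not called without array 2 of that strain (adjusted p = 0.0995). SPR1, a glucanase of the spore wall, rose by 0.30 in TBP-Y185C cells and 0.35 in TBP-F207L, and its only usable mot1-14 array read 0.05.

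**Figure D2:**
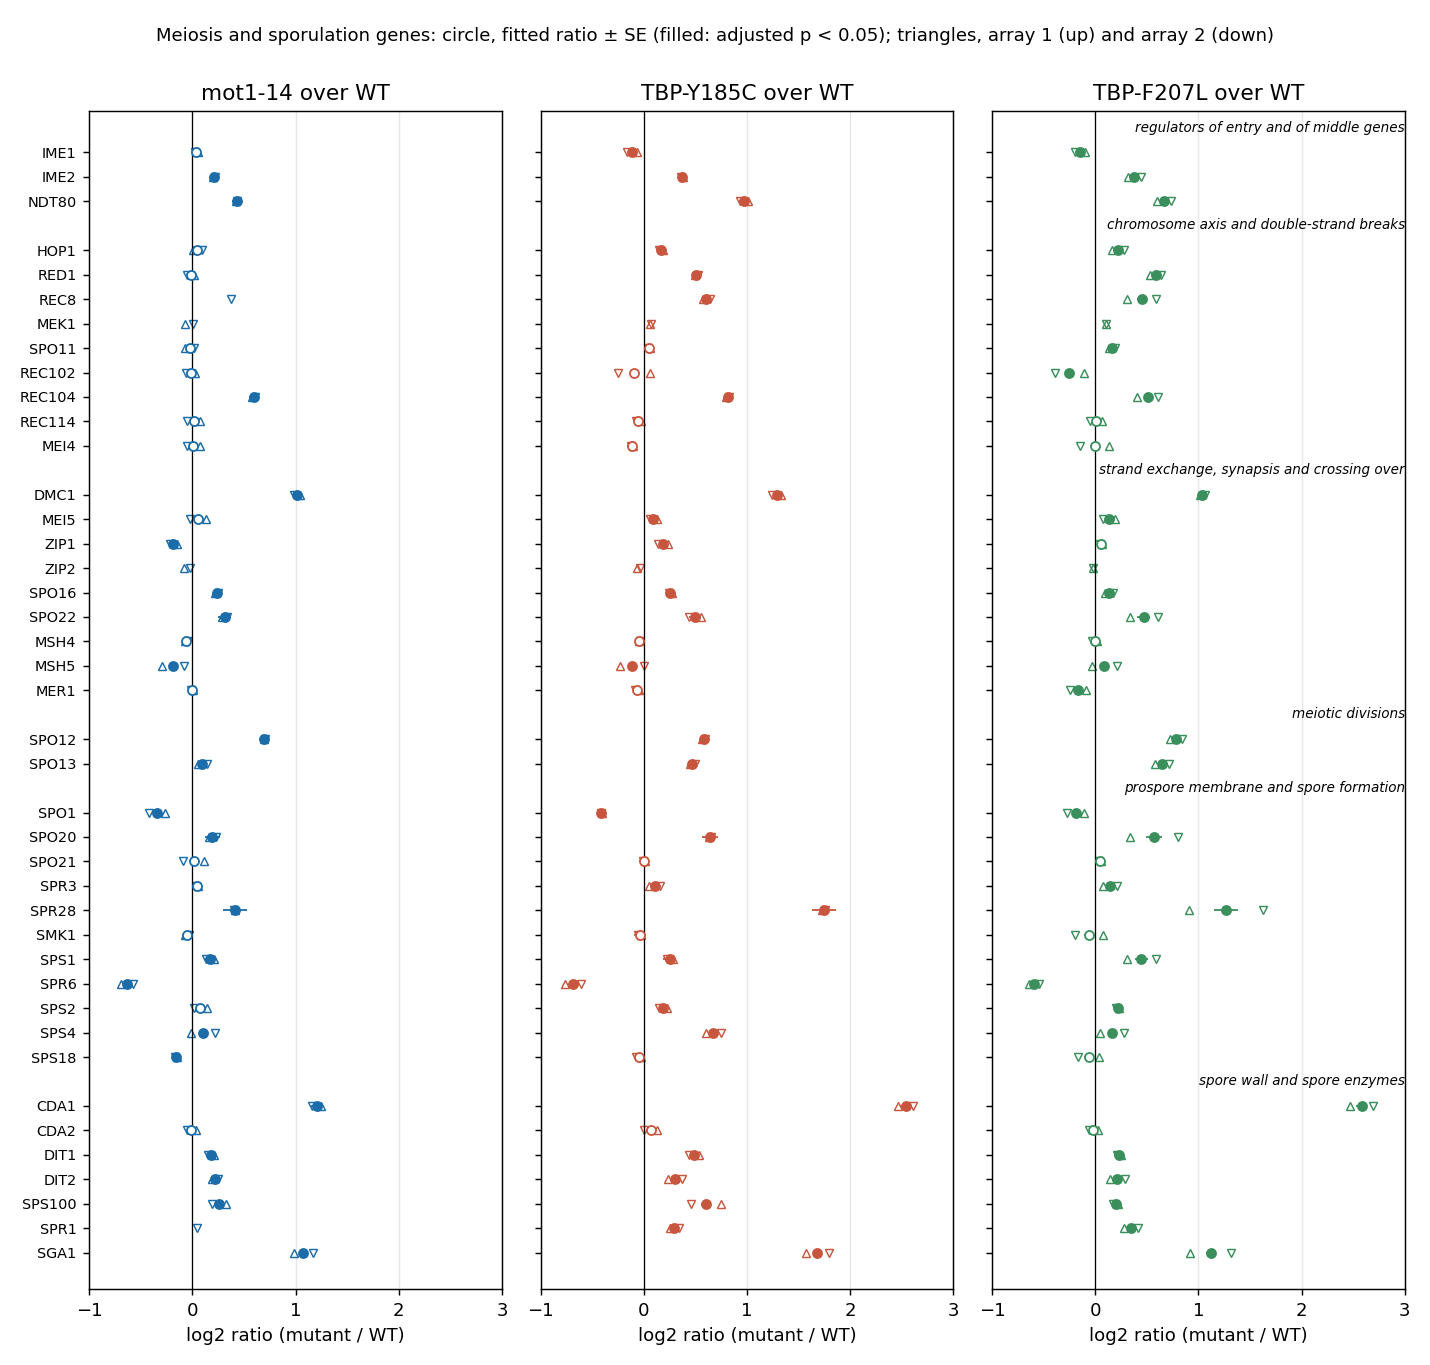
Log2 ratio of mutant over WT (horizontal axis) for each of the 41 genes, grouped by role, in cells of mot1-14, TBP-Y185C and TBP-F207L. Circles are fitted ratios with their SE, filled where the adjusted p was under 0.05, and triangles are the single arrays. CDA1 lies farthest to the right in each panel, at 1.20, 2.54 and 2.58, and SPR6 farthest to the left, at -0.64, -0.68 and -0.59.

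The series set the bypass strains against mot1-14, to ask which Mot1-dependent genes the TBP variants brought back to WT levels and which other genes they changed. With loess, more of the genes here were higher than lower in each bypass strain relative to mot1-14. Between TBP-Y185C and mot1-14, 14 of 37 were higher (37.8%) and IME1 was lower (2.70%), against 26% of all genes higher and 23.8% lower. With median centring in place of loess, 10 were higher (27%) and 10 lower (27%), against 21.9% and 16.1% of all genes. The 3 largest differences were in CDA1 (1.34, SE 0.08, adjusted p = 6.48e-05), SPR28 (1.33, SE 0.16, adjusted p = 0.000918) and SGA1 (0.61, SE 0.06, adjusted p = 0.000495). CDA1 and SPR28 differed by 2-fold or more upward, 5.41% of the genes against 0.604% of all genes. RED1, NDT80, SPS4, SPO13 and ZIP1 were among the others that were higher, by 0.37 to 0.57.

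Between TBP-F207L and mot1-14, 14 of 37 were higher (37.8%) and 3 were lower (8.11%), against 29% of all genes higher and 29.3% lower. With median centring 6 were higher (16.2%) and 3 lower (8.11%), against 23.7% and 22.2% of all genes. The share that was higher was then under that of all genes, as it was with the deposited log ratios (16.2% against 25.6%). It was also under without background correction (21.6% against 26.4%), with the authors' series table (21.6% against 25.9%) and without a dye term (10.8% against 12.2%). With outlier spots kept (38.5% against 28.4%) or no filter on dim probes (38.5% against 28.9%) it stayed above. CDA1 differed most (1.38, SE 0.08, adjusted p = 3.20e-05), followed by SPR28 (0.86, SE 0.16, adjusted p = 0.00402) and RED1 (0.60, SE 0.06, adjusted p = 0.000218). CDA1 was the only gene of the set that was higher by 2-fold or more in this difference (2.70%), a size that 0.506% of all genes reached. The lower genes were IME1, REC102 and MER1, by 0.16 to 0.23. The count of 17 called was 6 without array 2 of mot1-14, 9 without array 2 of TBP-F207L and 11 without array 1 of mot1-14. With the deposited log ratios it was 8, and the SPR28 difference was then not called (1.00, adjusted p = 0.176).

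The bypass strains differed less from each other. TBP-F207L was higher than TBP-Y185C for 4 of 39 genes (10.3%) and lower for 7 (17.9%), against 15.4% and 21.8% of all genes. With median centring these were 5 and 5 (12.8% each), against 7.54% and 14.3% of all genes. SGA1, SPS4 and SPS100 differed most, by -0.56 (SE 0.06, adjusted p = 0.00146), -0.51 (SE 0.05, adjusted p = 0.00107) and -0.40 (SE 0.06, adjusted p = 0.00458). REC104, NDT80, DIT1 and DMC1 were also lower in TBP-F207L, by 0.25 to 0.30. SPO1, SPO12, MSH5 and SPO13 were higher there, by 0.17 to 0.22. CDA1 did not pass between these strains, with a difference of 0.05 (SE 0.08). The count of 11 was 3 without array 1 of TBP-Y185C and 0 in a limma fit without a dye term, in which 8 genes had an unadjusted p under 0.05. Each pair of arrays lay on its own slide, so slide and mutant cannot be told apart in these differences.

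**Figure D3:**
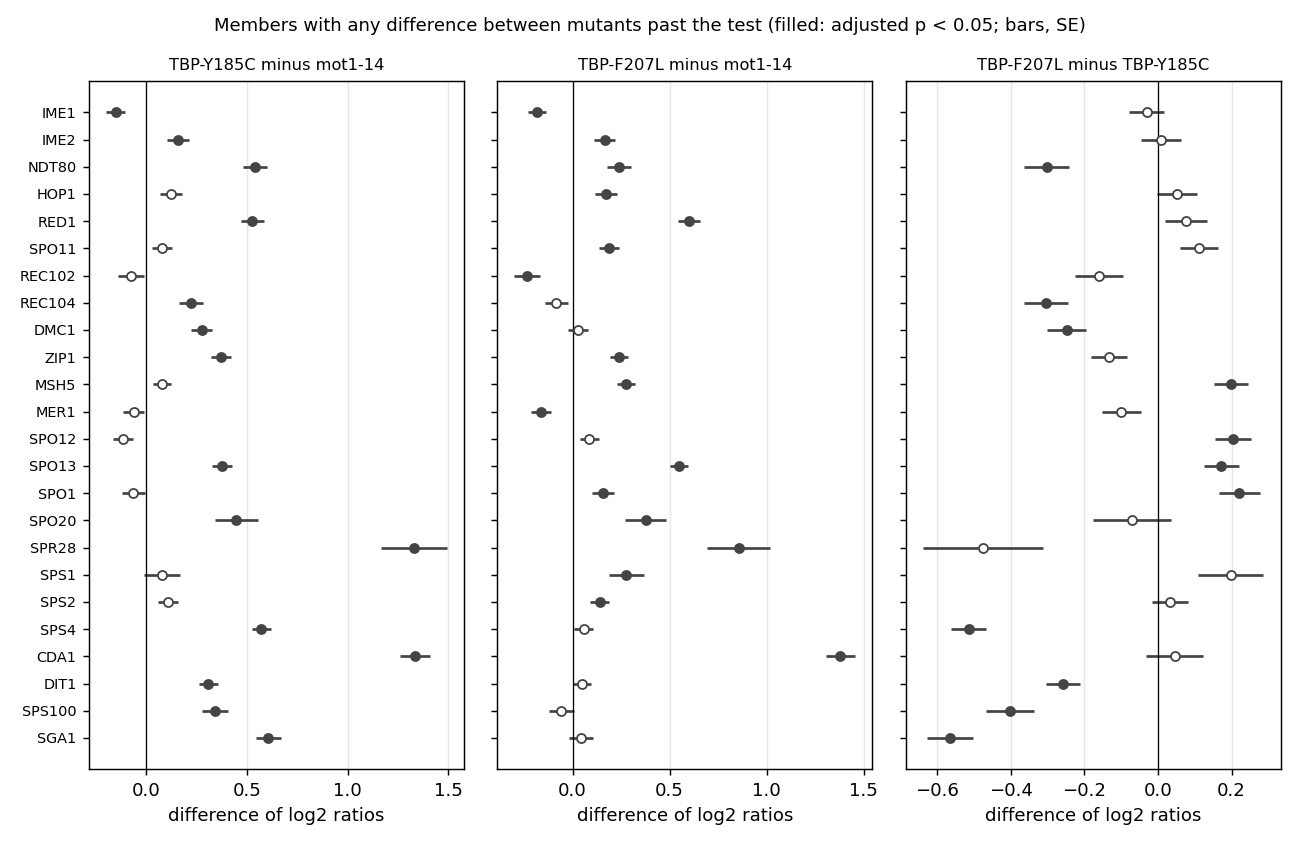
Difference of log2 ratios between mutants (horizontal axis, with SE) for the genes with any difference past the test, filled where the adjusted p was under 0.05. CDA1 stands at 1.34 and 1.38 against mot1-14 in the bypass strains and at 0.05 between them, and SGA1 and SPS4 lie to the left, at -0.56 and -0.51, in TBP-F207L minus TBP-Y185C.

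The arrays of a pair gave close values for these genes in mot1-14 and TBP-Y185C, with a median gap of 0.07 and 0.06 and a largest gap of 0.23 and 0.31. In TBP-F207L the median gap was 0.13 and the largest was 0.72, in SPR28. Of the 26 genes that rose in TBP-F207L, 22 read lower on array 1 than on array 2, with medians of 0.31 and 0.52. The like counts were 11 of 17 in mot1-14 cells and 13 of 25 in TBP-Y185C. Array 1 of TBP-F207L is the one with the raised negative control spots, and the part of that background in these gaps was not tested. Without that array, 24 genes rose and 7 fell in TBP-F207L, and without array 2 the rises of 2-fold or more were 2 in place of 4.

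**Figure D4:**
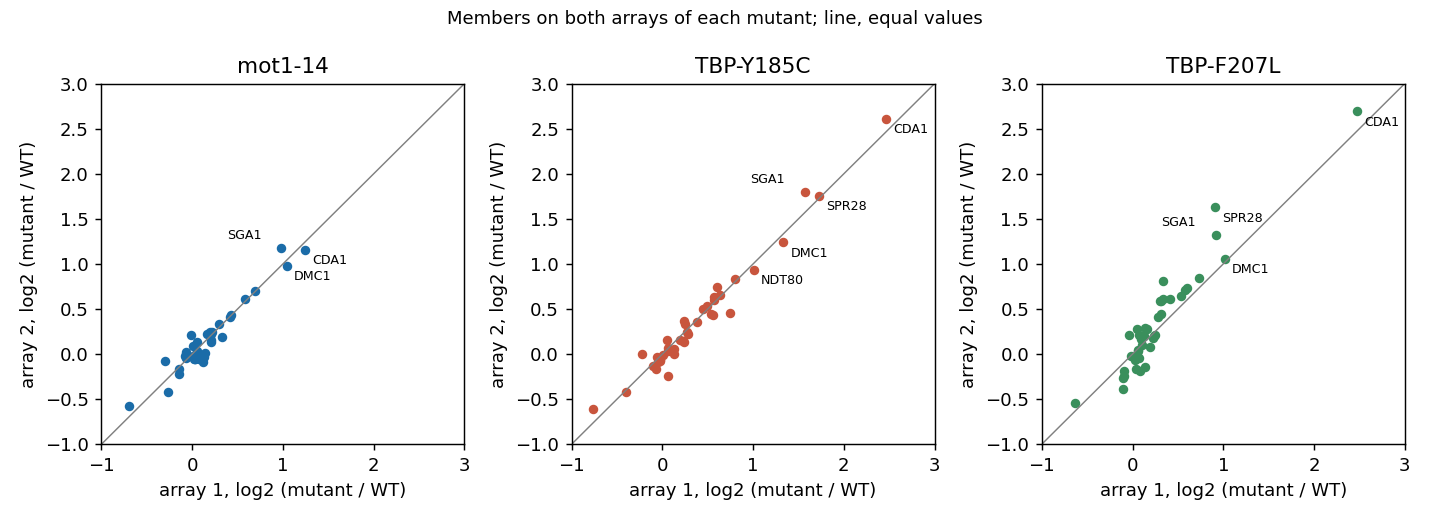
Log2 ratio of mutant over WT of the members on array 2 (vertical axis) against array 1 (horizontal axis) in cells of mot1-14, TBP-Y185C and TBP-F207L, with the line of equal values. In TBP-F207L most genes that rose lie above the line, SPR28 at 0.91 on array 1 and 1.63 on array 2.

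Sizes of change in these dim genes depended on how background was handled. The values above add an offset of 50 to each signal, which draws ratios of dim spots towards 0. With the authors' deposited log ratios, SPR28 stood at 1.15 in mot1-14 cells, 3.15 in TBP-Y185C cells and 2.15 in TBP-F207L. CDA1 then stood at 1.77, 3.36 and 3.37, and SPO13 at 0.47, 1.42 and 1.81. Rises of 2-fold or more then numbered 5, 14 and 9 genes in place of 3, 4 and 4. They made up 13.5%, 35.9% and 23.1% of the genes, against 6.59%, 9.45% and 7.7% of all genes under that setting. Directions also depended on the scaling. With each array centred on its median and no loess, 18 of 39 genes rose and 14 fell in TBP-Y185C cells, in place of 25 and 4, and 18 rose and 7 fell in TBP-F207L, in place of 26 and 5. In mot1-14 that scaling gave 15 that rose and 2 that fell, in place of 17 and 5. Under it 40.5%, 46.2% and 46.2% of the genes rose, against 30.2%, 37.2% and 35.5% of all genes. The shares that fell were 5.41%, 35.9% and 17.9%, against 29.5%, 36.6% and 35.2% of all genes, so the TBP-Y185C share of falls was near that of all genes.

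The deposited p-values of the scanner software's error model gave fewer calls. Where every usable spot of both arrays had to pass 0.05 in the same direction, 7 of 37 genes were higher in mot1-14 (18.9%) and 1 was lower, against 17% and 15.6% of all genes. In TBP-Y185C, 16 of 39 were higher (41%) and 2 were lower, against 21.4% and 20.6% of all genes. In TBP-F207L, 7 of 39 were higher (17.9%) and 1 was lower, against 15% and 14.8% of all genes. By this rule the share of these genes that were higher was thus near that of all genes in mot1-14 and TBP-F207L. CDA1, DMC1, NDT80, SGA1, SPO12 and SPR28 were higher by it in all 3 mutants, and SPR6 was lower. The share of all genes higher by this rule in all 3 is not given here.

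Some genes lay next to each other on a chromosome, by the gene order of RefSeq assembly R64 among genes on the array, and pairs with like and with unlike values both occurred. CDA1 and CDA2 lie side by side on chromosome XII, with 2.54 for CDA1 and 0.07 for CDA2 in TBP-Y185C. SPS18 lies beside SPS19, a peroxisomal enzyme gene also induced in sporulation, on chromosome XIV. SPS19 rose by 1.26 in mot1-14 cells, 2.02 in TBP-Y185C cells and 1.39 in TBP-F207L, while SPS18 stood at -0.16, -0.05 and -0.06. DMC1 on chromosome V has PDA1 and ISC10 as neighbours, and both of these fell in every mutant, ISC10 by 0.48, 0.58 and 0.57. SPS100 on chromosome VIII lies beside YHR138C, which rose by 1.72, 2.38 and 1.82. DIT1 and DIT2 on chromosome IV are neighbours, both above 0 in each mutant, and SPO12 and SPO16 on chromosome VIII are another such pair.

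Of 81 further genes of the pathway, 80 were on the array, HED1 being the one not found by name. In mot1-14, 27 of 78 tested rose (34.6%, against 37.5% of all genes) and 18 fell (23.1%, against 35.2%). In TBP-Y185C, 41 of 80 rose (51.2%, against 41% of all genes) and 20 fell (25%, against 38.8%). In TBP-F207L, 41 of 80 rose (51.2%, against 40.3%) and 19 fell (23.8%, against 38.8%). The share that rose was thus under that of all genes in mot1-14 and above it in the bypass strains. The list of further recombination genes had 6 of 20 that rose and 3 that fell in mot1-14 cells. These counts were 9 and 6 in TBP-Y185C cells, and 9 and 5 in TBP-F207L. The shares that rose, 30%, 45% and 45%, stood against 37.5%, 41% and 40.3% of all genes. Those that fell, 15%, 30% and 25%, stood against 35.2%, 38.8% and 38.8%. RDH54, a DNA translocase of recombination, rose by 0.40 in TBP-Y185C cells and 0.59 in TBP-F207L. Its 0.09 in mot1-14 (adjusted p = 0.042) was not called without either array of that mutant (adjusted p = 0.366 and 0.15). HFM1, a helicase of crossover formation, fell by 0.73 in TBP-Y185C cells and 0.28 in TBP-F207L and stood at 0.06 in mot1-14.

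Of 11 further division genes, 4 were higher and 2 lower in mot1-14 cells, with 5 and 3 in TBP-Y185C cells and 6 and 4 in TBP-F207L. The shares that rose, 36.4%, 45.5% and 54.5%, stood against 37.5%, 41% and 40.3% of all genes. Those that fell, 18.2%, 27.3% and 36.4%, stood against 35.2%, 38.8% and 38.8%. CSM1 and MAM1, subunits of the monopolin complex that joins sister kinetochores, rose in every mutant. CSM1 rose by 0.76, 0.96 and 1.05 and MAM1 by 0.32, 0.86 and 0.66. LRS4, of the same list, did not pass in mot1-14 (-0.03) or TBP-Y185C (0.05) and rose by 0.15 in TBP-F207L. SLK19, a kinetochore protein, rose by 0.51 in TBP-Y185C cells and 0.46 in TBP-F207L and stood at 0.01 in mot1-14. Among further spore formation genes, 11 of 24 rose and 5 fell in mot1-14 cells (45.8% and 20.8%). In TBP-Y185C cells 17 of 26 rose and 4 fell (65.4% and 15.4%), and in TBP-F207L 15 of 26 rose and 3 fell (57.7% and 11.5%). GSC2, a glucan synthase subunit also induced by stress, rose by 1.63, 1.66 and 0.78. OSW2, an outer spore wall gene, rose by 0.81, 1.52 and 0.67. CRR1, of the same list, fell by 0.74, 0.61 and 0.63.

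Regulators upstream of the programme moved both ways. Of 23, 6 rose and 8 fell in mot1-14 cells and 10 rose and 7 fell in TBP-Y185C cells. In TBP-F207L, 11 rose and 7 fell. The shares that rose were 26.1%, 43.5% and 47.8%, against 37.5%, 41% and 40.3% of all genes. The shares that fell were 34.8%, 30.4% and 30.4%, against 35.2%, 38.8% and 38.8% of all genes. RIM4, an RNA-binding protein of meiosis, read 1.33 and 1.33 in mot1-14 cells, 1.18 and 0.75 in TBP-Y185C cells and 0.79 and 1.13 in TBP-F207L. It rose by 1.33, 0.97 and 0.96, the highest values of this list in mot1-14 and TBP-F207L. RIM15, a kinase of nutrient signalling, rose by 0.56, 0.99 and 0.88, and MSN4, a stress transcription factor, rose by 0.99, 0.65 and 0.44.

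Repressors of early and middle genes also moved both ways. UME6 fell by 0.20 in mot1-14 cells and 0.19 in TBP-Y185C cells and stood at -0.04 in TBP-F207L. SUM1 read -0.71 and -0.14 in mot1-14 cells, -0.78 and -0.29 in TBP-Y185C cells and -0.76 and -0.17 in TBP-F207L, always lower on the Cy5 array. The fitted SUM1 falls were 0.43, 0.54 and 0.46, and none was called without a dye term (adjusted p = 0.125, 0.059 and 0.0914). HST1 fell by 0.65, 0.51 and 0.52, while RFM1, of the same repressor, rose by 0.36, 0.81 and 0.61. RPD3 fell by 0.48, 0.70 and 0.54 and UME1, a subunit of its complex, by 0.68, 0.75 and 0.72. SIN3, of the same complex, fell by 0.37 in mot1-14 cells and 0.42 in TBP-Y185C cells. In TBP-F207L, SIN3 did not pass (-0.10, adjusted p = 0.169). HST1, RFM1, RPD3, UME1 and SIN3 were named after their values were seen. RME1, a repressor of IME1 in haploid cells, rose by 0.53 in mot1-14 cells and 0.56 in TBP-Y185C cells and stood at 0.01 in TBP-F207L.

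**Figure D5:**
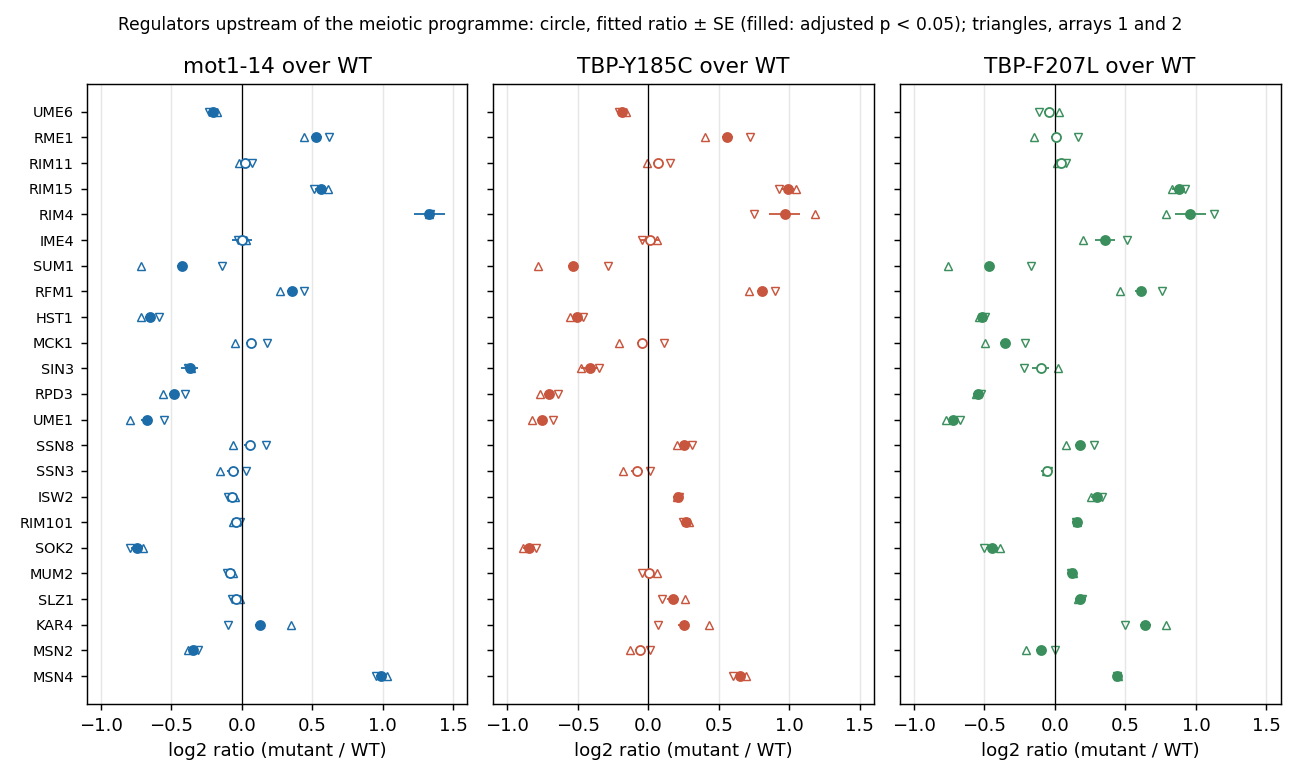
Log2 ratio of mutant over WT (horizontal axis) for 23 regulators upstream of the meiotic programme in cells of mot1-14, TBP-Y185C and TBP-F207L. Circles are fitted ratios with SE, filled where the adjusted p was under 0.05, and triangles are the single arrays. RIM4 lies at 1.33, 0.97 and 0.96, and UME1 and RPD3 lie to the left of 0 in each panel.

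Markers of other cell states were read beside these results. Most genes of a list for nutrient-depleted, non-growing cells rose in all 3 mutants, by widely different amounts. They were 11 of 11 tested in mot1-14 cells, 11 of 12 in TBP-Y185C cells and 11 of 12 in TBP-F207L. These shares, 100%, 91.7% and 91.7%, stood against 37.5%, 41% and 40.3% of all genes that rose. Their range was 0.11 to 3.93 in mot1-14 cells, 0.06 to 4.24 in TBP-Y185C cells and 0.05 to 3.95 in TBP-F207L, with medians of 0.98, 1.51 and 0.82. SIP18 stood at 0.11, 0.16 and 0.05, the last not called (adjusted p = 0.178). SNZ1 stood at 0.06 in TBP-Y185C cells (adjusted p = 0.309) and rose by 0.56 in TBP-F207L. Its only usable mot1-14 array read 0.06. TMA10, a stress-induced gene, was the highest of this list in each mutant. These genes moved in the same direction as most of the meiosis and sporulation genes that passed the test. The share of meiosis and sporulation genes that rose in mot1-14 was 45.9%, near the 37.5% of all genes. The part of the nutrient-depletion genes in those rises was not tested. Mating-type lists moved both ways, and each held few genes. Of all genes, 37.5%, 41% and 40.3% rose and 35.2%, 38.8% and 38.8% fell. Of 7 a-specific genes, 4 rose and 3 fell in mot1-14 cells (57.1% and 42.9%). In TBP-Y185C cells 1 rose and 3 fell (14.3% and 42.9%), and in TBP-F207L 4 rose and 2 fell (57.1% and 28.6%). Of 5 alpha-specific genes, 3, 1 and 3 rose (60%, 20% and 60%) and 0, 0 and 1 fell (0%, 0% and 20%). Of 10 haploid-specific genes, which a/alpha diploids turn off, 2, 2 and 3 rose and 5, 3 and 4 fell. These were 20%, 20% and 30% that rose and 50%, 30% and 40% that fell. HO, the mating-type switching endonuclease, fell by 1.62 in mot1-14 cells, 1.98 in TBP-Y185C cells and 1.25 in TBP-F207L.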

How the data were processed

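Arrays were scanned with Agilent Feature Extraction A.7.5.1, per the file headers. The deposited files give mean and local background intensity per spot, left unsubtracted by the authors. Each spot also has a deposited log10 ratio of the processed red to the processed green signal and a deposited p-value from the scanner's error model. In the series table deposited by the authors, values are log2 red/green: they matched the error-weighted mean of the usable spots' log ratios within 0.000153 and were not centred (medians -0.0258, 0.0188, -0.0228, 0.0247, -0.0034 and 0.0203). Their sign changes with the dye orientation, whereas the submitters describe every array as mutant over WT. Signals were corrected by normexp (offset 50) and normalized by loess within arrays with limma 3.58.1 (R 4.3.3). Control spots, 544 per array, were given weight 0 and then left out, as were outlier spots (at most 3.22% of an array), and spots of a probe were averaged. Of 6256 probes, 6232 were tested, each of them well above background in the mutant or WT channel of 2 or more arrays.

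One limma model over the 6 arrays held a signed coefficient per mutant and a dye term, with 2 residual degrees of freedom. A mutant was tested where both its arrays were measured (6127, 6231 and 6232 genes), and p-values were adjusted by the Benjamini-Hochberg method over all genes tested. The WT RNA counted as 1 control sample, and loess sets the bulk of genes to 0, so a change of all genes together would not show. The script was tested on simulated data. The number of arrays limits the precision. A ratio with WT not above background on both arrays of a mutant is given as a bound, the mutant's mean signal over the lowest signal well above background. The 41 genes and all lists were chosen with earlier results of these data known. Named genes were the regulators IME1, IME2 and NDT80, the 5 largest rises and falls per mutant with the same sign on both arrays, the 3 largest differences between mutants, up to 3 genes per further list, and UME6, RME1 and SUM1. Other genes, neighbours and HO included, were named to account for members and lists after their values were seen. A gene of the recombination list that this rule named is not reported here. Promoters and protein sequences were not analysed here.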

Additional observations from a re-analysis of the deposited data

How the results depend on the processing

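The dim signals, the 2 arrays per mutant and the 2 residual degrees of freedom limit these results. The number of genes called in TBP-F207L minus mot1-14, 17 as reported, was 8 with the deposited log ratios, 10 without background correction, 11 with a normexp offset of 10, 9 with median centring in place of loess, 10 with the authors' series table, 4 without a dye term, and 6 to 17 with 1 array left out. The 15 called in TBP-Y185C minus mot1-14 were 8 without a dye term and 10 to 16 with 1 array left out. The 11 called in TBP-F207L minus TBP-Y185C were 0 without a dye term (8 at an unadjusted p under 0.05) and 3 to 13 with 1 array left out. Calls over all genes dropped without a dye term as well. They were 965 in place of 3046 in TBP-Y185C minus mot1-14 and 1582 in place of 3572 in TBP-F207L minus mot1-14. In TBP-F207L minus TBP-Y185C they were 115 in place of 2316. By the deposited p-values, an alternative chosen after seeing the data, 8, 18 and 8 of the 41 genes were called in mot1-14, TBP-Y185C and TBP-F207L in place of 22, 29 and 31. With 1 array left out these counts ranged over 17 to 22, 22 to 30 and 25 to 31. The lone remaining array of a pair was then assumed to vary like the others. Median centring reversed 8 values of single genes. These were SPO11 in TBP-F207L (-0.055) and in TBP-F207L minus mot1-14 (-0.047), MEI5 (-0.21, adjusted p = 0.0143) and SPR3 (-0.32, adjusted p = 0.000119) in TBP-Y185C, SPS2 in TBP-Y185C (-0.10), in TBP-F207L (-0.050) and in TBP-F207L minus mot1-14 (-0.15), and IME2 in TBP-Y185C minus mot1-14 (-0.083). The limma test called MEI5 and SPR3 as falls there, and none of the other 6. The cause was not tested. Of the values of the 41 genes recomputed under settings other than leaving out an array, 1825 kept their direction and side of the threshold, 152 lost a call and 43 gained one. Slide as a random block could not be fitted, since no residual degrees of freedom lie within slides, and was not run. No paired analysis was possible because the labels give no replicate numbers that pair samples across mutants.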
